A study of Mus musculus with 20 samples.

Results

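Genes of the cell cycle, 40 in all, were followed in sorted microglia, the macrophages that reside in the brain, from mice with and without amyloid pathology and with and without the receptor Trem2. The genes were chosen by name, with earlier results of these data known. A gene counted as measured where a probe set was annotated to that gene alone, and where a gene had more than 1 such probe set the one with the highest mean stood for it. This gave 39 of the 40 genes, out of 19751 measured genes in all, since Ccnb1, which encodes cyclin B1, had no such probe set. They were split by role into 12 regulators of the step from G1 into S phase, 11 genes of DNA replication and nucleotide supply, and 16 measured genes of G2 and mitosis.

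Littermates of 4 genotypes, aged 8.5 months, were compared. WT mice gave 4 arrays, mice lacking Trem2 (Trem2-/-) gave 4, 5XFAD mice gave 5, and mice with both alterations (Trem2-/-5XFAD) gave 6. The 5XFAD line overexpresses mutant human amyloid precursor protein and presenilin transgenes from the neuronal Thy1 promoter and deposits plaques. Trem2 is a surface receptor of microglia that signals through Tyrobp. All animals were perfused with PBS, all cells were sorted by FACS straight into lysis buffer, and labelled cRNA was made from 2 ng of RNA in every sample. The sources used here do not state the Trem2 allele, the sorting gate, the sex of the animals or how many animals an array holds. The p-values therefore measure only the spread among arrays, which may be technical.

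Cells leave quiescence when D-type cyclins bind Cdk4 or Cdk6 and the complex phosphorylates the retinoblastoma protein Rb1, which frees E2F factors to switch on genes of S phase. Replication then needs the MCM helicase, the Pcna clamp and deoxynucleotides, and mitosis needs Cdk1 with cyclins A and B, the Aurora and Polo kinases, the spindle checkpoint and kinesin motors. Microglia in the adult brain are long-lived and divide rarely, and they can expand by division near plaques.

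Promoters of some of these genes carry known elements of cell cycle control. RefSeq promoter windows (GRCm38.p6, 250 bases before to 50 after the start) were found for 32 of the 40 genes, 35 windows in all, and Aurkb, Ccna2, Ccnd1, Ccnd2, Ccne2, Mcm4, Rb1 and Tpx2 had none. On both strands, 3 elements were searched. The E2F element was taken as TTTCCCGC, TTTCGCGC, TTTGCCGC or TTTGGCGC. The cell cycle homology region (CHR), bound by the DREAM and MuvB complexes, was taken as TTTGAA or TTCGAA. The CCAAT box, bound by NF-Y, was taken as CCAAT. TTTCGCGC and TTTGGCGC can overlap on opposite strands, and both are then counted. Among all 32851 windows of this length, 2.27% held an E2F element, 19.2% a CHR and 37.4% a CCAAT box.

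An E2F element stood in 5 of 11 windows of replication genes (45.5%), namely those of Cdc6, Mcm3, Mcm5, Mcm6 and 1 of the windows of Mcm7. It stood in 1 of 10 windows of G1/S regulators (Cdk2) and in 1 of 14 windows of mitotic genes (Cdk1). A CHR stood in 10 of 14 windows of mitotic genes (71.4%), in 2 of 11 of replication genes and in 0 of 10 of G1/S regulators. A CCAAT box stood in 12 of 14 mitotic windows (85.7%), in 9 of 11 replication windows and in 4 of 10 windows of G1/S regulators. A match is a run of letters and not a measured binding site.

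The 250 bases before the start are printed for Cdk6 and Birc5, which passed the test in the arrays, for Mcm6, the helicase gene with the smallest p, and for Cdk1, which holds all 3 elements. They lie at chr5:3343643-3343892 (plus strand), chr11:117848987-117849236 (plus strand), chr1:128359706-128359955 (minus strand) and chr10:69352913-69353162 (minus strand). Capitals mark the searched elements, read 5′ to 3′ on the strand of the gene.
Cdk6: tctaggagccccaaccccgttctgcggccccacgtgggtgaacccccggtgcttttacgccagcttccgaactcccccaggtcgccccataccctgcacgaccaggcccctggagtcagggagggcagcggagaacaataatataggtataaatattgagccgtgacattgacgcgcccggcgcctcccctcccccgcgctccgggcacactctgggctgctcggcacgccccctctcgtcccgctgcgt
Birc5: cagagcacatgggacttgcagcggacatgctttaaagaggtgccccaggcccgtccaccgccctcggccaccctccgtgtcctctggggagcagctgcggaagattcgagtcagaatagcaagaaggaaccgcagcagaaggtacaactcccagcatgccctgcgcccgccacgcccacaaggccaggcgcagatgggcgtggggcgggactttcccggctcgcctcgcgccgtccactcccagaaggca
Mcm6: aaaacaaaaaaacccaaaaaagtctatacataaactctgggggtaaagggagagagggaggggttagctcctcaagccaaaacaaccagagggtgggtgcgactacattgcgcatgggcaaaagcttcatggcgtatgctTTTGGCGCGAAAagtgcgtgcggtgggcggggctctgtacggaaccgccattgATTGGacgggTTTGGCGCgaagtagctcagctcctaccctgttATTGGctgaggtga
Cdk1: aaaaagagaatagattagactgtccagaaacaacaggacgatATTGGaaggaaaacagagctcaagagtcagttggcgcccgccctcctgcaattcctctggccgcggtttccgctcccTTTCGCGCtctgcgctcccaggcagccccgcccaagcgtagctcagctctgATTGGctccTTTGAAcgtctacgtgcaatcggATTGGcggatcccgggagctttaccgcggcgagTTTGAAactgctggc
The stretches of Cdk6 and Birc5 held none of the searched letters. That of Mcm6 held 3 E2F elements, 2 of them overlapping, and 2 CCAAT boxes. That of Cdk1 held 1 E2F element, 2 CHR and 3 CCAAT boxes.

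**Figure D1:**
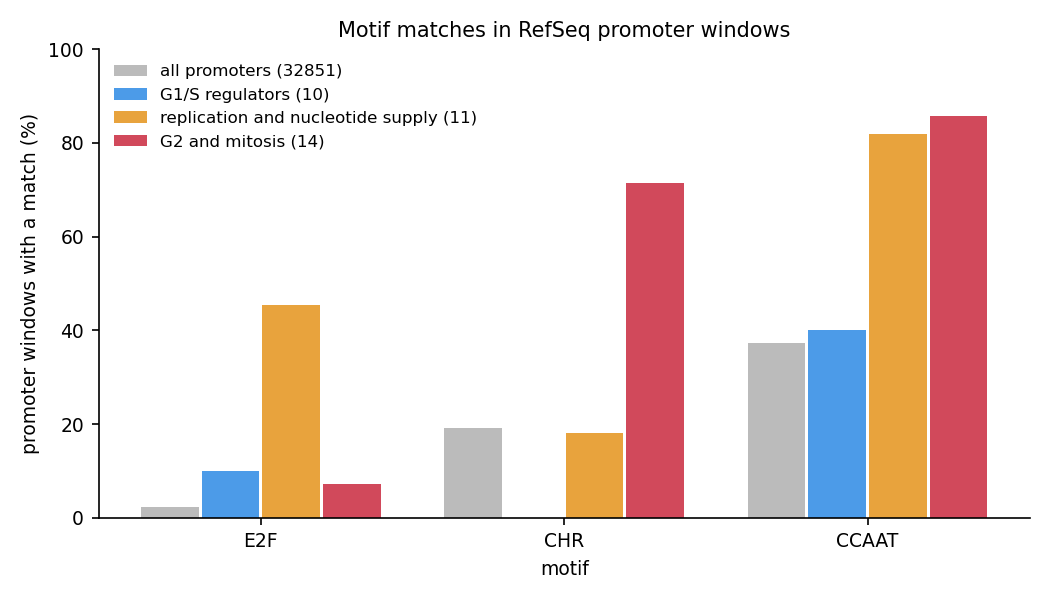
Share of RefSeq promoter windows (percent, vertical axis) that held each searched element (horizontal axis), for all windows and for the windows of each class of cell cycle genes, with the number of windows in brackets. E2F elements were in 45.5% of replication windows and CHR in 71.4% of mitotic windows, against 2.27% and 19.2% of all windows.

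Trem2 itself was read first as a check of the labels. It lay between 11.14 and 11.39 in WT and between 11.45 and 11.80 in 5XFAD on the log2(intensity + 1) scale, and between 6.75 and 7.60 in all arrays of mice lacking it. A further array has a title of WT but a genotype of Trem2-/-. It was put in no group, and its Trem2 value was 11.08. Microglial markers (9 of 10 measured) exceeded the 40th percentile of every array. Their mean lay between 11.27 and 11.53 in WT, 11.28 and 11.40 in Trem2-/-, 10.75 and 10.93 in 5XFAD, and 11.16 and 11.22 in Trem2-/-5XFAD. Border macrophage markers (10 of 10 measured) averaged 5.99 to 6.85 in WT, 6.34 to 7.46 in Trem2-/-, 5.31 to 5.94 in 5XFAD and 6.24 to 6.89 in Trem2-/-5XFAD. Astrocyte markers (8 of 8) averaged 4.93 to 5.07, 4.65 to 4.96, 5.26 to 5.69 and 4.99 to 5.22 in the same order. Xist, which female cells transcribe, was high in 3 of 4 WT, 3 of 4 Trem2-/-, 1 of 5 5XFAD and 0 of 6 Trem2-/-5XFAD arrays. The mean of 3 measured Y-linked genes was 2.97 to 3.18 in the assigned arrays with high Xist and 5.52 to 6.76 in the others. By these signals WT arrays read mostly as female and 5XFAD arrays mostly as male, so sex and genotype are largely confounded in that comparison. The salivary gland kallikrein Klk1b22, picked with its values known, read 7.91 to 9.51 in WT 1, WT 2, 5XFAD 1 and 5XFAD 2 and at most 3.80 in the other 15 arrays. These signals move with the groups, and their part in the results was not tested beyond the fits given. In sorted populations, a lower signal can come from fewer cells that express a gene or from less RNA per cell, and these cannot be told apart.

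Some of the genes were weak in these microglia, and the classes differed in how often. Of the 39 measured genes 30 passed the filter for testing, beside 64.4% of all 19751 genes, so the set was not weaker than genes at large. The mean 40th percentile of the arrays, used here as the edge of background, was 4.23. In the G1/S class, 9 of 12 genes exceeded the percentile in all 19 assigned arrays, as did 9 of 11 replication genes and 3 of 16 mitotic genes (Cdk1, Ccnb2 and Aurka). The share of all genes that did so was not computed. Intensities of different probe sets are not amounts of RNA, so these levels serve only to place a gene above or near background. Gene means ran from 3.79 for Ccne2 to 8.98 for Cdkn1b in the G1/S class, with a median of 6.43. They ran from 3.41 for Rrm2 to 10.89 for Pcna in the replication class (median 5.70), and from 3.08 for Bub1 to 5.86 for Aurka in the mitotic class (median 4.41). Which copy the Pcna probe set reads is uncertain, as described below.

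In all, 10 of the measured genes had a mean under the 40th percentile and count as near background. By its definition, 40% of all probe sets of an array lie under that percentile. They were the E-type cyclins Ccne1 and Ccne2, which drive Cdk2, the transcription factor E2f1, the licensing factor Cdc6, the small ribonucleotide reductase subunit Rrm2, the checkpoint kinases Bub1 and Bub1b, the kinetochore motor Cenpe, and the spindle proteins Tpx2 and Nusap1. Ccne1 exceeded the percentile in 5 arrays and was tested, while the other 9 ranged between 2.66 and 4.60 over all arrays and were not. Tested without any filter on dim genes, none of the 9 passed, and the smallest adjusted p in limma was 0.294 for Cenpe in 5XFAD against WT (+0.28 ± 0.14, SE).

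**Figure D2:**
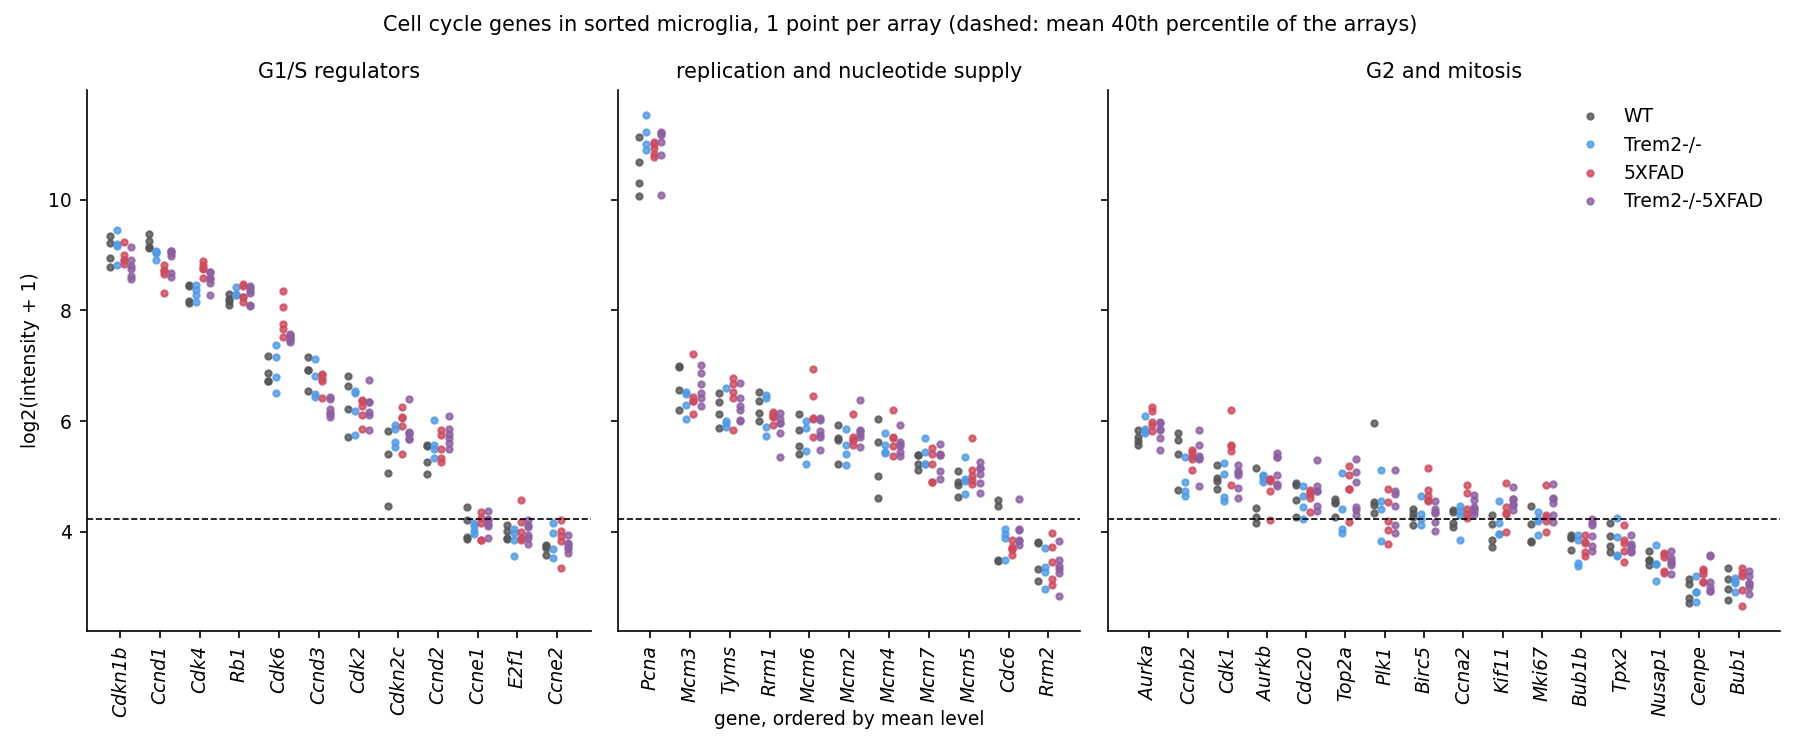
Level of each of the 39 measured genes as log2(intensity + 1) (vertical axis), 1 point per array, by class and ordered by mean (horizontal axis), coloured by genotype; the dashed line is the mean 40th percentile of the arrays, 4.23. Most mitotic genes sit near or below the line, while 9 of 12 G1/S and 9 of 11 replication genes lie above it in every array.

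In 5XFAD against WT microglia, 4 regulators of G1 and 1 mitotic gene passed the test. Cdk6 and Cdk4, the kinases of the D-type cyclins, rose, as did Cdkn2c, an inhibitor of the same kinases (p18INK4c), while Ccnd1, which encodes cyclin D1, fell. Birc5, which encodes survivin of the chromosomal passenger complex, also rose. Of the 30 tested genes, 5 passed (16.7%; limma, adjusted p under 0.05), 4 higher and 1 lower, beside a background of 15.0% of all 12728 genes tested, 8.23% higher and 6.77% lower, so their share was near that of genes at large. By class, 4 of 10 G1/S regulators, 0 of 9 replication genes and 1 of 11 mitotic genes passed. The median log2 difference of the 30 genes was 0.24, with 19 above 0, and that of all tested genes was −0.02. At an unadjusted p under 0.05 there were 9 of the 30. The share of all genes at that threshold was not computed for any comparison. Counts at an unadjusted p, here and below, therefore cannot be read as an excess.

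Cdk6 read 6.73, 6.73, 6.87 and 7.18 in WT and 7.52, 8.06, 8.35, 7.75 and 7.66 in 5XFAD. The groups did not overlap, with 5XFAD 3 highest. The mean rose from 6.88 ± 0.21 (SD, n = 4) to 7.87 ± 0.33 (SD, n = 5), a difference of +0.99 ± 0.17 (SE) or 1.99-fold (limma adjusted p = 0.000247). Its partner kinase Cdk4 read 8.46, 8.17, 8.14 and 8.45 in WT and 8.77, 8.75, 8.89, 8.59 and 8.82 in 5XFAD, again without overlap. The difference was +0.46 ± 0.11, or 1.38-fold (adjusted p = 0.0057).

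Ccnd1 moved against its kinases. It read 9.26, 9.39, 9.12 and 9.15 in WT and 8.71, 8.66, 8.81, 8.31 and 8.73 in 5XFAD, so that every 5XFAD array lay below every WT array. The mean fell by 0.58 on the log2 scale (SE 0.12, adjusted p = 0.00169). Without WT 1, WT 2, 5XFAD 1 and 5XFAD 2, the arrays with the salivary signal, Cdk6 still passed (+0.90, adjusted p = 0.0145), while the adjusted p of Ccnd1 was 0.0652 and that of Cdk4 was 0.0634. In arrays with low Xist signal alone these were 0.0664 and 0.0774. That subset holds WT 2 as its single WT array, which also carries the salivary signal and is assumed to vary like the other groups. The other D-type cyclins did not pass: Ccnd2 differed by +0.17 ± 0.16 (95% interval −0.16 to 0.51) and Ccnd3 by −0.16 ± 0.15 (−0.47 to 0.14).

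Cdkn2c read 4.47, 5.06, 5.82 and 5.42 in WT and 6.26, 6.06, 6.08, 5.92 and 5.42 in 5XFAD. The groups overlapped, with WT 1 low and 5XFAD 5 at the level of WT 4. The difference was +0.75 ± 0.22 (1.69-fold, adjusted p = 0.0199). It fell to +0.52 without WT 1 (adjusted p = 0.0917), and the adjusted p was 0.0519 without WT 2 and 0.0545 without 5XFAD 1. Without the 4 arrays with the salivary signal the difference was +0.19 (adjusted p = 0.700), and the adjusted p was 0.111 in arrays with low Xist signal alone and 0.0763 in a model of WT and 5XFAD alone. Cdkn1b, which encodes the inhibitor p27 and has the brightest probe set of its class, read 8.79, 8.95, 9.35 and 9.22 in WT and ran from 8.84 to 9.24 in 5XFAD, with a median of 8.92, so that the groups overlapped. It differed by −0.10 ± 0.15 (adjusted p = 0.740), Rb1 by +0.12 ± 0.10, Cdk2 by −0.15 ± 0.21 and Ccne1 by −0.02 ± 0.14. None of these 4 passed.

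Birc5 read 4.42, 4.12, 4.28 and 4.33 in WT and 4.65, 5.16, 4.57, 4.57 and 4.75 in 5XFAD. The groups did not overlap, but all WT values lay close to the edge of background. The difference was +0.45 ± 0.14 (1.37-fold, adjusted p = 0.0277). The adjusted p was 0.0840 without WT 2, 0.0597 without WT 3 and 0.0792 without 5XFAD 2, and 0.0558 with the Xist signal as a term. It was 0.0624 in a model of WT and 5XFAD alone and 0.0669 with the replicate number as a block (+0.44). It was 0.134 in arrays with low Xist signal alone, and without the 4 arrays with the salivary signal the difference was +0.33 (adjusted p = 0.269). Aurka, the centrosomal Aurora kinase and the brightest mitotic probe set, read 5.56, 5.64, 5.71 and 5.84 in WT and 6.18, 5.98, 5.83, 5.94 and 6.26 in 5XFAD. It differed by +0.35 ± 0.12 and did not pass (adjusted p = 0.0522). Cdk1, the mitotic kinase, read 5.21, 4.78, 4.91 and 4.97 in WT and 6.20, 4.85, 5.47, 5.56 and 5.58 in 5XFAD, with 5XFAD 2 inside the WT range. Its difference was +0.56 ± 0.20 (adjusted p = 0.0652).

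The other tested mitotic genes gave no call. Kif11, a bipolar spindle kinesin, differed by +0.40 ± 0.16 (adjusted p = 0.109). Mki67, which encodes the proliferation antigen Ki-67, read 3.83, 3.83, 4.46 and 4.15 in WT and 4.20, 4.30, 4.85 and 4.27 in 5XFAD 1, 3, 4 and 5, with 5XFAD 2 below these and inside the WT range. These ranges overlapped around the edge of background, and the difference was +0.26 ± 0.17 (95% interval −0.10 to 0.61). Top2a, the topoisomerase of dividing cells, differed by +0.31 ± 0.23, Ccna2 (cyclin A2) by +0.26 ± 0.14, Aurkb by +0.25 ± 0.19 and Plk1, the Polo kinase, by −0.57 ± 0.31. WT 3 read 5.97 for Plk1 and the other WT arrays at most 4.55, and without WT 3 the difference was −0.19 (adjusted p = 0.727). That of Mki67 was +0.12 without 5XFAD 4. Ccnb2 (cyclin B2) and the anaphase activator Cdc20 differed by −0.05 ± 0.20 and −0.01 ± 0.17.

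No replication gene passed in 5XFAD against WT. The smallest p belonged to Mcm6, a helicase subunit. It read 5.41, 5.84, 5.55 and 6.12 in WT and 6.45, 6.03, 6.95, 5.71 and 6.06 in 5XFAD, overlapping, with a difference of +0.51 ± 0.21 (adjusted p = 0.121). The other subunits differed by +0.11 ± 0.17 (Mcm2), −0.18 ± 0.20 (Mcm3), +0.38 ± 0.22 (Mcm4), +0.26 ± 0.16 (Mcm5) and −0.09 ± 0.15 (Mcm7). Pcna, the sliding clamp, differed by +0.37 ± 0.22, thymidylate synthase Tyms by +0.24 ± 0.19 and Rrm1, the large ribonucleotide reductase subunit, by −0.18 ± 0.17. The signs of these genes were mixed, 6 above 0 and 3 below. A second, less bright Pcna probe set differed by +0.15 ± 0.10 (limma adjusted p = 0.371). Single arrays moved some of these values. Mcm4 read 4.62 in WT 1 and differed by +0.14 without it (adjusted p = 0.721), but by +0.62 without WT 4 (adjusted p = 0.0414), which read 6.05. Mcm5 read 5.70 in 5XFAD 3 and differed by +0.11 without it (adjusted p = 0.693), and Mcm6 by +0.33 without the same array (adjusted p = 0.304). Pcna differed by +0.21 without WT 4 and by +0.57 without WT 1.

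**Figure D3:**
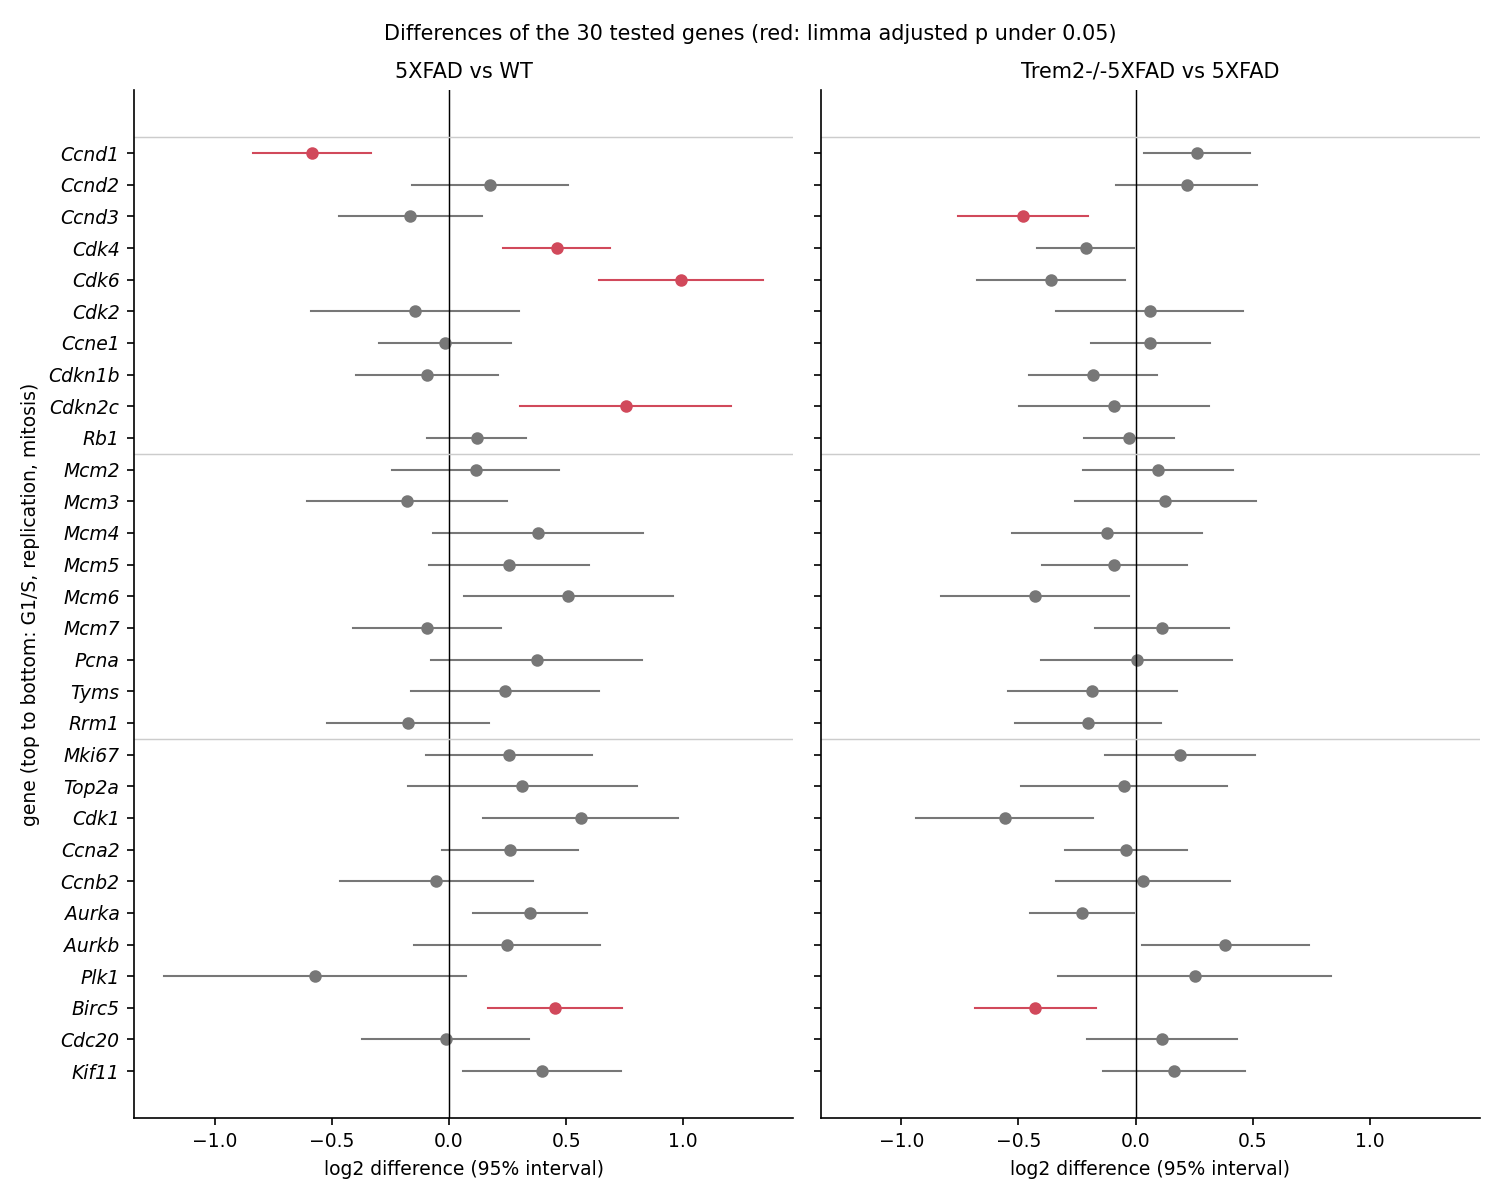
Log2 difference (horizontal axis) of the 30 tested genes (vertical axis, by class) in 5XFAD against WT and in Trem2-/-5XFAD against 5XFAD, as the limma estimate with its 95% interval; red marks an adjusted p under 0.05. In the first comparison 4 of the 5 red genes are G1/S regulators, and in the second Ccnd3 and Birc5 are red, both below 0.

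Trem2-/-5XFAD microglia had lower Ccnd3, which encodes cyclin D3, and lower Birc5 than 5XFAD microglia. Of the 30 tested genes these 2 passed (6.67%), both lower, beside a background of 7.68% of all genes tested, 3.21% higher and 4.46% lower. The median difference of the 30 genes was −0.03, and that of all genes was 0.04. At an unadjusted p under 0.05 there were 9. This comparison shares the 5XFAD arrays with the one before, so the values are set side by side and not as a second line of evidence.

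Ccnd3 read 6.76, 6.83, 6.86, 6.41 and 6.73 in 5XFAD, and in Trem2-/-5XFAD the lowest, median and highest values were 6.07, 6.19 and 6.43. The groups overlapped at 5XFAD 4 alone. The mean fell from 6.72 ± 0.18 (SD, n = 5) to 6.24 ± 0.15 (SD, n = 6), a difference of −0.48 ± 0.13 (limma adjusted p = 0.0279). The adjusted p lay between 0.0514 and 0.0730 when 5XFAD 1, 2, 3 or 5 or Trem2-/-5XFAD 4 or 5 was left out, with differences of −0.45 to −0.48. Without WT 1, WT 2, 5XFAD 1 and 5XFAD 2 it was −0.43 (adjusted p = 0.134). In Trem2-/- against WT, Ccnd3 differed by −0.164 (SE 0.155, limma adjusted p = 0.726), and its interaction was −0.32 ± 0.20 (adjusted p = 0.524). Ccnd3 lies on chromosome 17, and whether its segment was inherited together with the Trem2 allele was not tested.

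Birc5 was lower in every Trem2-/-5XFAD array than in any 5XFAD array. The lowest, median and highest values in Trem2-/-5XFAD were 4.02, 4.35 and 4.55, against 4.57 as the lowest in 5XFAD. The mean fell from 4.74 ± 0.25 (SD, n = 5) to 4.31 ± 0.19 (SD, n = 6), by −0.43 ± 0.12 (1.35-fold, adjusted p = 0.0367), and WT stood at 4.29 ± 0.12 (SD, n = 4). The adjusted p was between 0.0577 and 0.127 when 5XFAD 1, 2 or 5 or Trem2-/-5XFAD 1, 3, 4 or 5 was left out. With the mean of the neutrophil markers as a covariate the difference was −0.39 (adjusted p = 0.124), and without the 4 arrays with the salivary signal it was −0.32 (adjusted p = 0.234). It was −0.42 with the Xist signal as a term (adjusted p = 0.0574), −0.45 in arrays with low Xist signal alone (adjusted p = 0.0788), −0.45 with the replicate number as a block (adjusted p = 0.0747) and −0.43 in a model of the 2 groups alone (adjusted p = 0.0516). Those markers averaged 3.88 to 4.55 in 5XFAD and 4.16 to 5.66 in Trem2-/-5XFAD, with all 9 tested markers higher in Trem2-/-5XFAD by sign and 0 of them called (limma, 3 at an unadjusted p under 0.05).

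Cdk6 in Trem2-/-5XFAD had a lowest, median and highest value of 7.44, 7.50 and 7.58, a spread narrower than in the other groups (SD 0.05). These values lay above all WT and Trem2-/- arrays and overlapped the low end of the 5XFAD range, whose lowest array read 7.52. The difference from 5XFAD was −0.36 ± 0.15 and did not pass (adjusted p = 0.178). Ccnd1 differed by +0.26 ± 0.11 (adjusted p = 0.174), with 4 of 6 Trem2-/-5XFAD arrays between 8.98 and 9.07 and Trem2-/-5XFAD 2 and 6 at 8.61 and 8.68, inside the 5XFAD range. Cdk4 differed by −0.21 ± 0.10 (adjusted p = 0.232).

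Among mitotic genes, Cdk1 had a lowest, median and highest value of 4.61, 5.05 and 5.21 in Trem2-/-5XFAD, and it differed from 5XFAD by −0.56 ± 0.18 without passing (adjusted p = 0.0656). Aurka differed by −0.23 ± 0.11 and Aurkb by +0.38 ± 0.17, so the Aurora kinases had opposite signs, and neither passed. Mki67 differed by +0.19 ± 0.15, Kif11 by +0.16 ± 0.15, Plk1 by +0.25 ± 0.28, Top2a by −0.05 ± 0.21, Ccna2 by −0.04 ± 0.13, Ccnb2 by +0.03 ± 0.18 and Cdc20 by +0.11 ± 0.15. Of the replication genes, Mcm6 again had the smallest p (−0.43 ± 0.19, adjusted p = 0.213), and its difference was −0.25 without 5XFAD 3 (adjusted p = 0.487). The remaining replication genes lay between −0.20 for Rrm1 and +0.13 for Mcm3, and the remaining G1/S regulators between −0.18 for Cdkn1b and +0.22 for Ccnd2. The second Pcna probe set differed by +0.17 ± 0.09 (limma adjusted p = 0.321).

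**Figure D4:**
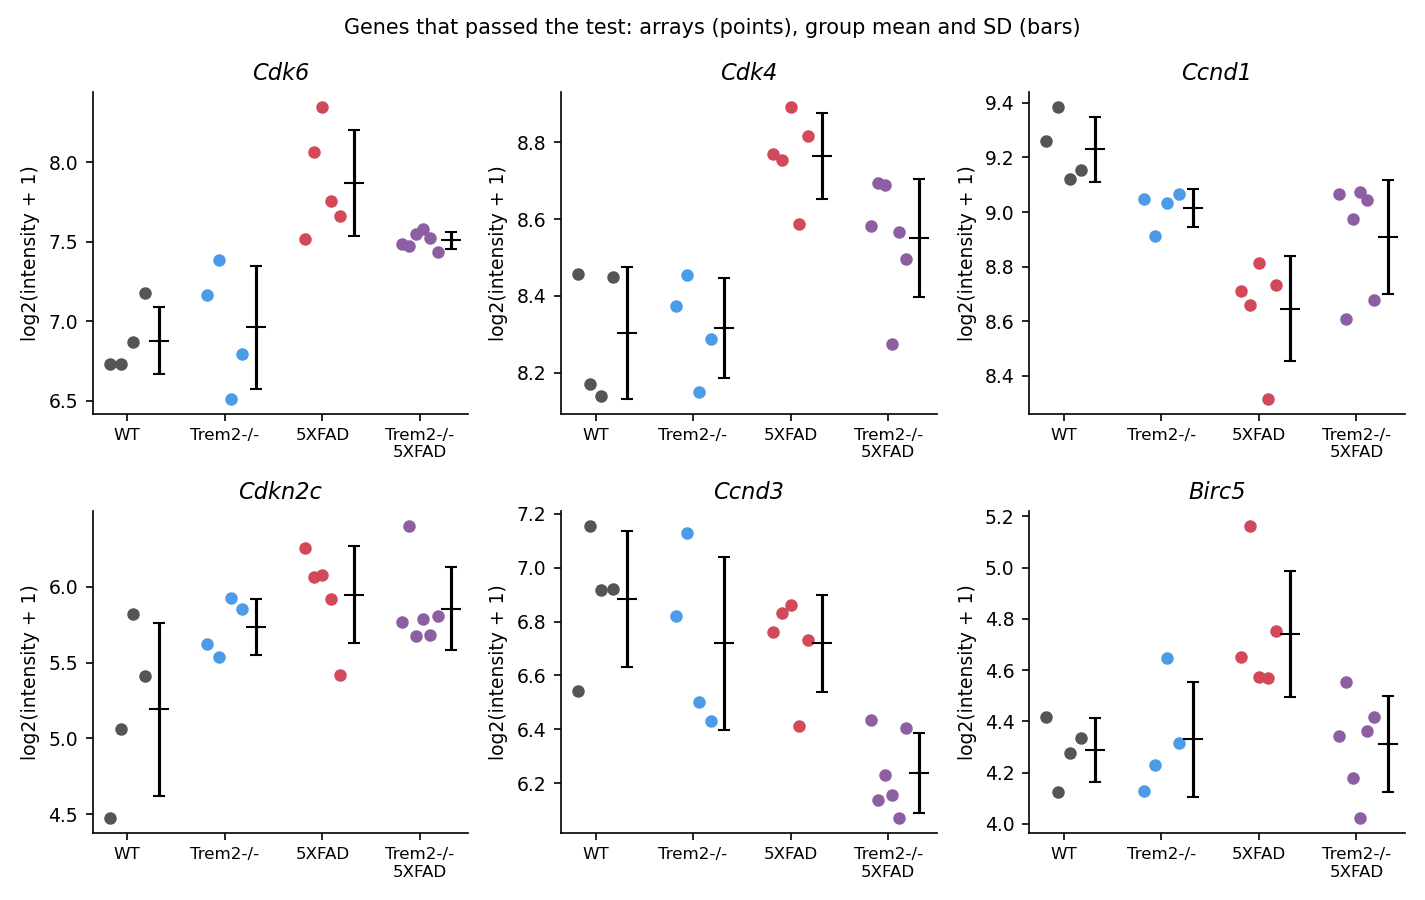
The 6 genes that passed in a comparison, as log2(intensity + 1) (vertical axis) by genotype (horizontal axis); points are arrays, and the bars give the group mean and SD. The panels have their own vertical scales, which do not start at 0. Cdk6, Cdk4 and Birc5 are higher and Ccnd1 is lower in 5XFAD than in WT without overlap, and Ccnd3 is lowest in Trem2-/-5XFAD.

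In mice without plaques, Trem2-/- and WT microglia gave no call among these genes. By limma, 0 of 30 passed and 4 had an unadjusted p under 0.05, beside a background of 0.613% of all genes called, 0.385% higher and 0.228% lower. The median difference was 0.01. Pcna read 11.12, 10.68, 10.30 and 10.06 in WT and 11.53, 10.90, 11.02 and 11.23 in Trem2-/-, overlapping through WT 1, and differed by +0.62 ± 0.23 (adjusted p = 0.249). The second Pcna probe set, less bright, differed by +0.46 ± 0.11 (adjusted p = 0.0530). RefSeq lists Pcna pseudogenes on chromosomes 19 and X, and the sources used here do not say which copy each probe set reads. Probe set numbers of the other genes run by chromosome. The less bright one is numbered between Bub1 and E2f1 on chromosome 2, where Pcna lies. The brighter one, which stands for Pcna throughout, is numbered between Ccnd3 on chromosome 17 and Kif11 on chromosome 19. Whether it reads the pseudogene was not tested, so the Pcna values are uncertain, those of the brighter one above all.

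The smallest p among G1/S regulators was that of Cdkn2c. It read 5.62, 5.54, 5.93 and 5.86 in Trem2-/-, above 3 of 4 WT arrays, and differed by +0.54 ± 0.23 (adjusted p = 0.326), or by +0.30 without WT 1 (adjusted p = 0.587). Ccnd1 read 9.05, 8.91, 9.03 and 9.07, all below the lowest WT array, and yet the difference of −0.21 ± 0.13 did not pass (adjusted p = 0.529). Among mitotic genes, Ccnb2 had the smallest p. It read 5.78, 5.40, 5.66 and 4.76 in WT and 4.74, 5.35, 4.66 and 4.91 in Trem2-/-, with WT 4 inside the Trem2-/- range. It differed by −0.49 ± 0.21 (adjusted p = 0.336) and Aurkb by +0.47 ± 0.20 (adjusted p = 0.337). Birc5 differed by +0.04, Cdk6 by +0.09 and Cdk4 by +0.01.

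The effect of 5XFAD in mice lacking Trem2 likewise gave no call. Of 30 genes 0 passed in limma and 6 had an unadjusted p under 0.05, beside a background of 2.18% of all genes called, 1.63% higher and 0.558% lower. The median difference was 0.11. Ccnd3 differed by −0.48 ± 0.14 (adjusted p = 0.0849) and Cdk6 by +0.54 ± 0.16 (adjusted p = 0.0905), the latter with groups that did not overlap: Trem2-/- read 7.16, 7.38, 6.51 and 6.79. Kif11 read 4.17, 4.57, 3.97 and 3.97 in Trem2-/- and had a lowest, median and highest value of 4.40, 4.55 and 4.81 in Trem2-/-5XFAD. All but Trem2-/- 2 lay below that range, and the difference was +0.40 ± 0.16 (adjusted p = 0.222). Mcm2, the replication gene with the smallest p, read 5.58, 5.40, 5.21 and 5.85 in Trem2-/- and had a lowest, median and highest value of 5.53, 5.79 and 6.38 in Trem2-/-5XFAD. It differed by +0.33 ± 0.16 (adjusted p = 0.364). Cdk6 passed when Trem2-/- 2 was left out, and Ccnd3 passed when Trem2-/- 4 was left out or when the array with conflicting labels was counted as Trem2-/-. The Trem2 value of that array, 11.08, goes against that label, since Trem2-/- arrays read at most 7.02.

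Whether the effect of 5XFAD depended on Trem2 was tested as an interaction, the change with 5XFAD in mice lacking Trem2 minus that in mice with it. By limma, 0 of 30 genes passed and 4 had an unadjusted p under 0.05, beside a background of 2.60% of all genes called, 1.02% higher and 1.58% lower. The smallest p was that of Ccnd1 (+0.48 ± 0.17, adjusted p = 0.166), followed by Aurka (−0.43 ± 0.16, adjusted p = 0.204), Birc5 (−0.47 ± 0.19, adjusted p = 0.246) and Cdkn2c (−0.64 ± 0.30, adjusted p = 0.340). Pcna, by its brighter probe set, had the smallest p of the replication genes (−0.62 ± 0.30, adjusted p = 0.359), and Cdk6 differed by −0.45 ± 0.23 (adjusted p = 0.405). The interaction was not read for the second Pcna probe set. A change in Cdk6, Cdk4, Ccnd1, Cdkn2c or Birc5 that passed in mice with Trem2 and not in mice without it is therefore not shown to differ between them.

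Single arrays stood apart in the replication genes within their groups. For the 6 helicase genes Mcm2 to Mcm7, 5XFAD 3 was the highest 5XFAD array in 6 of 6, with a mean of 6.28 against 5.53 to 5.80 in the others. Trem2-/-5XFAD 1 was highest in 5 of 6 (mean 6.01), Trem2-/- 1 in 4 of 6 (5.76) and WT 4 in 5 of 6 (5.90). Over the 9 tested replication genes, 5XFAD 3 was highest in 7. The mean of the 14 neutrophil markers was also highest within its group in 5XFAD 3 (4.55), Trem2-/-5XFAD 1 (5.66) and Trem2-/- 1 (5.47), whereas WT 4 had the lowest of the WT group (3.67). Trem2-/-5XFAD 6 had the next highest marker mean of its group (4.98) and its lowest helicase mean (5.53). In 5XFAD 1 to 5, 5, 5, 4, 4 and 3 of the 14 markers exceeded the 40th percentile, so 5XFAD 3 did not have the most. The part of neutrophil RNA in the helicase values was not tested. Mitotic genes followed other arrays: Trem2-/-5XFAD 2 was highest in 8 of 11 tested mitotic genes, and its helicase mean was 5.62.

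**Figure D5:**
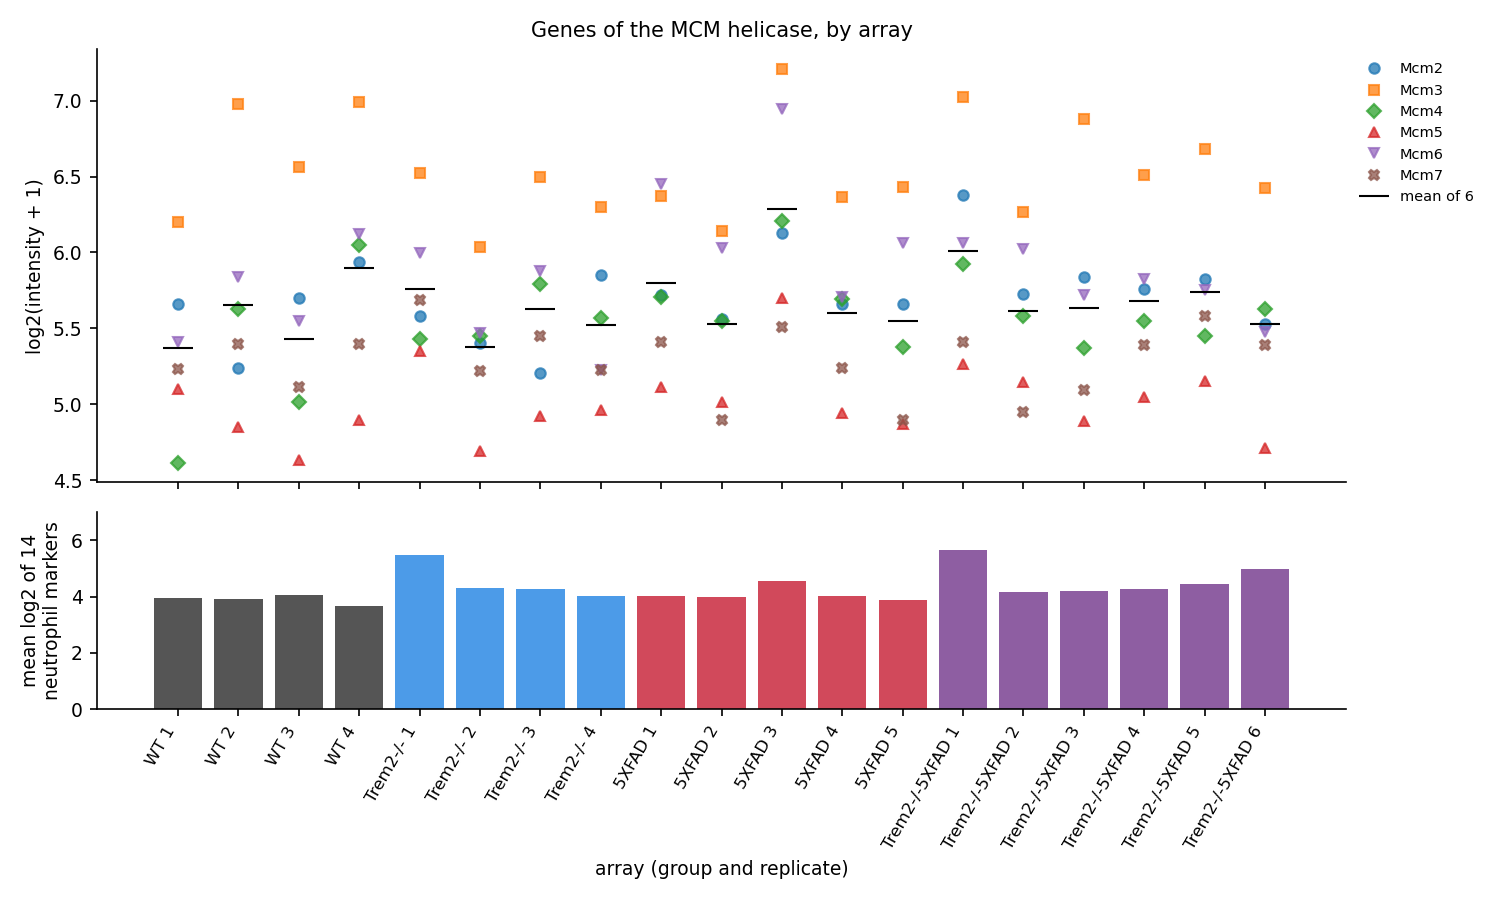
Upper panel, log2(intensity + 1) of the 6 helicase genes in each of the 19 assigned arrays, with a bar at their mean; lower panel, mean log2 value of the 14 neutrophil markers in the same arrays (bars start at 0, coloured by genotype). 5XFAD 3 and Trem2-/-5XFAD 1 have the highest helicase means, 6.28 and 6.01, and in WT 4 a high helicase mean of 5.90 stands beside a low marker mean of 3.67.

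Other genes of the same pathways were read from lists chosen by role. In 5XFAD against WT, 7 of 27 tested further G1/S genes passed, 3 higher and 4 lower, beside the 15.0% of all genes. E2f3, an activating E2F factor, fell by 0.60 (SE 0.15, adjusted p = 0.00758), and Btg2, an antiproliferative gene, fell by 0.34 (SE 0.09, adjusted p = 0.012). The inhibitor gene Cdkn2a rose by 0.38 ± 0.10 (adjusted p = 0.0159) and Fbxw7, which marks cyclin E for degradation, by 0.50 ± 0.14 (adjusted p = 0.0203). Rbl2 and Lin37 also passed, lower, and Tfdp2 passed, higher. Of 36 tested further replication genes 2 passed, both higher: the thymidine kinase Tk1, from 7.63 to 8.91 (+1.28 ± 0.23, adjusted p = 0.000369), and Pola1, the catalytic subunit of DNA polymerase alpha (+0.46 ± 0.13, adjusted p = 0.0193). Pola1 read between 3.71 and 4.06 in WT, under the edge of background (4.23) in every array. In 5XFAD it read between 4.15 and 4.73, on both sides of that edge, so the size of its rise is uncertain. Of 32 tested further mitotic genes 3 rose and 1 fell. Ncaph, a condensin subunit, fell by 0.93 (SE 0.17, adjusted p = 0.000449), while the centromeric histone Cenpa rose by 0.43 ± 0.13 (adjusted p = 0.0237), Cks1b, which binds cyclin-dependent kinases, by 1.12 ± 0.35 (adjusted p = 0.0346) and Ckap2l, a spindle protein, by 0.61 ± 0.20 (adjusted p = 0.0394).

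These calls differed in how far they rested on single arrays. Cks1b read 4.06, 6.07, 5.12 and 6.03 in WT and 6.46, 7.07, 6.72, 6.35 and 5.62 in 5XFAD. WT 1 was low and 5XFAD 5 lay inside the WT range, and without WT 1 the difference was +0.70 (adjusted p = 0.152). Tk1 read 7.48, 8.70, 6.86 and 7.47 in WT and 8.95, 8.79, 8.99 and 8.81 in 5XFAD 1, 3, 4 and 5, with 5XFAD 2 just above these, so that WT 2 came close to the 5XFAD range. In arrays with low Xist signal alone, where WT 2 stands for WT, Tk1 differed by +0.20 (adjusted p = 0.639). Of the 13 called genes, 9 lost their call without some single array, and Btg2, E2f3, Ncaph and Tk1 kept it without each in turn. Tfdp2 lost its call without any of 12 of the 19 arrays. In a model of WT and 5XFAD alone, 8 of the 13 did not pass: Btg2 (adjusted p = 0.0851), Rbl2, Lin37, Tfdp2, Pola1, Cenpa, Cks1b and Ckap2l. With the array with conflicting labels counted as WT, 4 did not: Cdkn2a, Lin37, Cenpa and Cks1b.

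Without the 4 arrays with the salivary signal, 7 of the 13 did not pass: Btg2, E2f3 (−0.49, adjusted p = 0.138), Fbxw7, Lin37, Tfdp2, Pola1 and Cks1b. With the Xist signal as a term, 7 did not: Cdkn2a (+0.27, adjusted p = 0.117), Fbxw7, Rbl2, Lin37, Cenpa, Cks1b and Ckap2l. Ncaph and Tk1 passed in both fits, at −0.81 and −0.77 for Ncaph and +1.70 and +1.09 for Tk1. In arrays with low Xist signal alone E2f3 and Fbxw7 passed and the other 11 did not.

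In Trem2-/-5XFAD against 5XFAD, 1 of 27 G1/S genes, 2 of 36 replication genes and 1 of 32 mitotic genes of these lists passed, beside the 7.68% of all genes. Ncaph was higher by 0.77 ± 0.15 (adjusted p = 0.00213), from 5.45 to 6.23, next to 6.38 in WT. Tk1 was lower, by −0.67 ± 0.20 (adjusted p = 0.0494). Lin37, a MuvB subunit, was higher by 0.35 ± 0.10 (adjusted p = 0.0360), and Pola2, another subunit of polymerase alpha, by 0.46 ± 0.12 (adjusted p = 0.0177). Lin37 was also the gene of these lists that passed the interaction (+0.63 ± 0.16, adjusted p = 0.0316). With the array with conflicting labels counted as WT, the interaction of Lin37 was +0.47 (adjusted p = 0.321). In that fit Lin37 differed by +0.35 from 5XFAD (adjusted p = 0.147) and by −0.22 in 5XFAD against WT (adjusted p = 0.351). That array read 6.43 for Lin37, and the WT arrays 7.24, 7.16, 7.50 and 7.13. Ncaph passed without each single array, without the 4 arrays with the salivary signal, with the Xist signal as a term and in arrays with low Xist signal alone (+0.68 to +0.84). Tk1 lost its call without any of 16 of the 19 arrays, Lin37 without any of 8 and Pola2 without 5XFAD 2 or 4. Without the 4 arrays Lin37 (+0.38, adjusted p = 0.118) and Pola2 (+0.40, adjusted p = 0.138) did not pass, nor did they in arrays with low Xist signal alone. The interaction of Lin37 gave an adjusted p of 0.0706 without the 4 arrays and 0.326 in arrays with low Xist signal alone, and missed the threshold without any of 7 single arrays. In Trem2-/- against WT, 0 of these genes passed in limma, with 4, 2 and 3 at an unadjusted p under 0.05 in the G1/S, replication and mitotic lists. In Trem2-/-5XFAD against Trem2-/-, 0 passed as well, with 2, 5 and 8.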

How the data were processed

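The authors deposited a table of linear intensity values, 24679 probe sets on 20 arrays. The sources used here do not state its scanner software, summary method or normalization. A platform annotation named 1 gene for 21354 probe sets, which stand for 19751 genes. A pseudocount of 1 was added to each intensity before log2, which understates the folds of weak genes. Genes above their array's 40th percentile on 4 or more of the 19 assigned arrays were tested (12728 genes, 30 of them among the 40 described). A single linear model of the 4 genotypes was fitted in limma 3.58.1 (R 4.3.3), with Benjamini-Hochberg adjustment over all genes tested and a threshold of 0.05. Every adjusted p in the text is from limma, and errors of differences are standard errors. The fit was tested on simulated data. The number of arrays limits the precision.

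The 40 genes, the pathway and marker lists and the tests were chosen with earlier results of these data known. All 40 genes are named. Values or ranges are given for each gene called, in the groups where it was called. In each class they are also given for the brightest gene and for genes with the smallest p in a comparison, but not in every group. Of the pathway lists, differences are given for up to 4 called genes of a list, and array values for some. Promoter sequences are RefSeq's. Alternatives covered the pseudocount, filter, scaling, probe set, arrays fitted, replicate number, neutrophil markers and Xist signal.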

Additional observations from a re-analysis of the deposited data

Results flagged for a closer look

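Within groups, 8 of 120 gene and group combinations of the tested genes held an array far from the rest by Dixon's criterion, which chance meets in about 1 in 20. Ccnd3 was low in 5XFAD 4 (6.41, next value 6.73), and Cdkn2c was high in Trem2-/-5XFAD 2 (6.40, next 5.81). Mcm2 was high in 5XFAD 3 (6.13, next 5.72) and in Trem2-/-5XFAD 1 (6.38, next 5.84). Mcm3 was high in 5XFAD 3 (7.21, next 6.43). Pcna was low in Trem2-/-5XFAD 3 (10.09, next 10.80), and Aurkb was low in 5XFAD 2 (4.21, next 4.75). Plk1 was high in WT 3 (5.97, next 4.55). In the array with conflicting labels, which entered no comparison, Ccna2 read 5.10, above the highest assigned array (4.85).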

How the results depend on the processing

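In 5XFAD against WT, 5 of the genes passed. The count was 3 in a model of these groups alone (Birc5 and Cdkn2c missed, adjusted p = 0.0624 and 0.0763), 1 (Cdk6) in arrays with low Xist signal alone, whose single WT array is WT 2, 1 (Cdk6) without WT 1, WT 2, 5XFAD 1 and 5XFAD 2, and 0 in arrays with high Xist signal alone, which hold 1 5XFAD array, whose spread is assumed to be that of the others. It ranged from 3, without WT 2, to 7, without WT 4, when each array was left out in turn, and was 4 with the replicate number as a block (Birc5 missed, +0.44, adjusted p = 0.0669). Cdk6 ran from +0.59 to +1.22 over the alternatives and missed the threshold in the high Xist subset alone (+0.59, adjusted p = 0.441). In Trem2-/-5XFAD against 5XFAD, 2 passed. The count was 1 (Ccnd3) with a pseudocount of 16, a stricter filter that leaves Birc5 untested, these groups alone, the replicate block, the neutrophil covariate, the Xist term, low Xist alone, or without Trem2-/- 1 and Trem2-/-5XFAD 1, and 1 (Cdk1) without the 4 arrays with the salivary signal. It ranged from 0, without 5XFAD 1 or 5 or Trem2-/-5XFAD 4 or 5, to 2 on leaving out arrays. In Trem2-/-5XFAD against Trem2-/-, 0 became 1 (Ccnd3) with the conflicting array as Trem2-/-, a label its Trem2 value of 11.08 goes against, and ranged from 0 to 1 on leaving out arrays. Trem2-/- against WT and the interaction stayed at 0 under each alternative run. The subset of high Xist and the one without the 2 arrays rich in neutrophil markers were chosen after seeing the data. Residuals of 25 same-numbered pairs correlated between −0.10 and 0.17, and those of 109 other pairs between −0.17 and 0.18. Only 5 of 19 arrays correlated best with their own number, so single numbers gave no clear pairing. Residuals of WT 1 and WT 2 correlated with those of 5XFAD 1 and 5XFAD 2 at 0.10 to 0.16, and with those of 5XFAD 3, 4 and 5 at −0.17 to 0.004. The arrays with the salivary signal thus resembled each other, and whether a batch underlies this was not tested. Over all genes, the 1909 calls of 5XFAD against WT became 856 with low and 444 with high Xist alone, and the 977 of Trem2-/-5XFAD against 5XFAD became 579 without the 4 arrays. The 78 of Trem2-/- against WT ranged from 10 to 271, the 278 of Trem2-/-5XFAD against Trem2-/- from 123 to 411, and the 331 of the interaction from 61 to 383. The causes were not tested.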
